A study of Mus musculus with 36 samples.

Results

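Newly made and older RNA were separated at the end of a 4sU pulse in mouse embryonic stem (mES) cells that had lost METTL3, YTHDC1 or ZCCHC8, and each pool was compared with the pool in undepleted cells. The libraries taken at 0 min of uridine chase were used, which are 12 of the 36 in the series. Of the 22979 genes listed in any of the deposited tables, 7455 had at least 100 reads in all 12 libraries and were analysed. Of these, 7405 were protein-coding and 34 were lincRNA genes. In a fit where the lines shared 1 estimate of spread, loss of METTL3 gave the most calls, with most of its rises in old RNA. In that fit the changes called after loss of YTHDC1 or ZCCHC8 were few. By the test of the ratio used below, 119 of 156 called genes (YTHDC1) and 248 of 303 (ZCCHC8) had no placement in a pool. The rest lay in old RNA or in both pools, and after loss of ZCCHC8 some lay in new RNA. The ranking of the lines by calls depends on the shared spread. With each line fitted alone, new RNA gave 36 rises and 241 falls after loss of METTL3. It gave 180 and 238 after loss of YTHDC1, and 230 and 311 after loss of ZCCHC8. In old RNA the rises were then 1247, 352 and 951 and the falls 197, 623 and 332, in the same order of lines.

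SLAM-seq uses 4-thiouridine (4sU), a uridine analogue that is built into RNA made during the pulse, and iodoacetamide, which makes each 4sU read as C instead of T in the sequence. GRAND-SLAM, a statistical model of these T-to-C changes, gives for each gene and library the new-to-total ratio, the share of its RNA made since labelling began. Here new RNA is the read count multiplied by that ratio, and old RNA is the remainder. A gene whose RNA is replaced quickly has a ratio near 1 and little old RNA, whereas a long-lived RNA has a low ratio.

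N6-methyladenosine (m6A) is placed on nascent RNA by a complex whose enzyme is METTL3. In the cytoplasm m6A is bound by the YTHDF proteins, which bring methylated mRNA to the deadenylation machinery, and in the nucleus by YTHDC1, which has roles in splicing, export and RNA decay. ZCCHC8 is the scaffold of the nuclear exosome targeting (NEXT) complex, which hands short, unspliced and non-polyadenylated transcripts to the RNA exosome.

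Each protein carried an FKBP12-derived degron tag on its own gene, in 1 clone per line (12D for METTL3, Y12H for YTHDC1 and Z12H for ZCCHC8). Each dTAG library was compared with Ctrl of the same clone, while differences between lines cannot be told apart from differences between clones. All lines are of the Cast x 129S background, and the labels place the TetOn promoter of Xist on the 129S allele. The dTAG arm received dTAG-13, which sends the tagged protein to the proteasome, from 2 h before doxycycline, and the Ctrl arm did not. All libraries received 1 μg ml-1 doxycycline for 20 h and then 500 μM 4sU with doxycycline for 4 h, so that proteins had been depleted for 26 h at sampling. There were 2 replicates per line and arm, and the study's methods describe repeats of a single clone in which the wells of a replicate were split from a shared batch of cells. The cells were grown on fibroblast feeders that were removed by pre-plating. A bulk library cannot tell fewer cells of a type from less RNA per cell.

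The 12 libraries held between 5589652 and 12146374 reads, the ZCCHC8 libraries being the shallowest. All 9 mES cell markers checked were present in each library, with a summed level of 2850 to 3710 CPM (read counts scaled to a common library size), against 54.8 to 113 CPM for 12 fibroblast markers. Levels of new and old RNA below are also in CPM, after adding 1 read and with the scaling factors named under the processing. Levels after the chase are in CPM of total reads, without either step. The median new-to-total ratio over the genes analysed lay between 0.457 and 0.563. In METTL3 replicate 2 the ratio was estimated at exactly 1 for 125 genes in Ctrl and 14 in dTAG. In ZCCHC8 replicate 1 these numbers were 71 and 11. For such genes the old RNA of a library is listed at 0, and a change in old RNA rests on the other libraries and on the 1 read added before taking logs. The T-to-C share implied for new RNA also differed between arms, from 7.42% to 6.97% in METTL3 replicate 1 and from 8.04% to 8.96% in replicate 2. It went from 8.87% to 7.52% in YTHDC1 replicate 1 and from 9.46% to 7.92% in ZCCHC8 replicate 1, but only from 8.05% to 8.18% and from 8.65% to 8.55% in replicate 2 of these lines. The part of these label differences in the results was not tested.

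The degron acts on protein, so the RNA of a tagged gene is no check of depletion. Mettl3 RNA in the METTL3 line changed by -0.04 ± 0.15 (SE) on the log2 scale in new RNA and by 0.50 ± 0.22 in old RNA, with limma adjusted p-values of 0.877 and 0.0963. Zcchc8 RNA in the ZCCHC8 line changed by 0.01 ± 0.15 and 0.43 ± 0.27, with limma adjusted p-values of 0.996 and 0.414. Ythdc1 RNA rose in the YTHDC1 line, in new RNA from 105 and 156 CPM in Ctrl to 218 and 230 in dTAG and in old RNA from 42.2 and 44.6 to 93.5 and 92.5. The 4 dTAG values lay above the Ctrl values in both pools. The fitted rises were 1.75-fold in new RNA and 2.14-fold in old RNA, with limma adjusted p = 0.00902 and 0.00115. Without the pairing of libraries by replicate the old-RNA rise was still called (limma adjusted p = 0.0375) and that in new RNA was not (limma adjusted p = 0.999). Gm43055, which overlaps Ythdc1 on the same strand and can share its reads, rose alongside.

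Over all genes, loss of METTL3 raised the new RNA of 157 genes (2.11% of those tested) and lowered that of 926 (12.4%). It raised the old RNA of 1907 genes (25.6%) and lowered that of 682 (9.15%). The new-to-old ratio fell for 2361 genes (31.7%) and rose for 289 (3.88%). After loss of YTHDC1, new RNA rose for 7 genes (0.0939%) and fell for 31 (0.416%), old RNA rose for 13 (0.174%) and fell for 73 (0.979%), and the ratio rose for 54 (0.724%) and fell for 18 (0.241%). After loss of ZCCHC8, new RNA rose for 48 genes (0.644%) and fell for 30 (0.402%), old RNA rose for 112 (1.50%) and fell for 54 (0.724%), and the ratio rose for 42 (0.563%) and fell for 78 (1.05%). These calls are from limma at an adjusted p under 0.05, with each dTAG library compared with the Ctrl library of its own line and replicate. Without that pairing the METTL3 line kept 1 rise and 4 falls in new RNA and 1105 rises and 133 falls in old RNA. In the other lines the same limma fit gave at most 8 calls in any of the 3 measures, and 0 for new RNA in the YTHDC1 line, where 205 genes had an unadjusted p under 0.05. Of the 234 calls on single genes that the naming rule gave, 72 of 133 in the METTL3 line, 7 of 40 in the YTHDC1 line and 8 of 61 in the ZCCHC8 line were also called without the pairing. In new RNA these were only Fbxo5 in the METTL3 line (limma adjusted p = 0.049) and Rdm1 in the ZCCHC8 line (limma adjusted p = 0.00181). The pairing was left out of all lines at once, so that replicate differences of every line entered the spread used for each. It was not left out of 1 line alone, here or for the single genes below. The lines share 1 estimate of spread, and leaving out METTL3 replicate 1 or 2 raised the calls in the YTHDC1 line from 38 to 435 and 442 in new RNA and from 86 to 885 and 875 in old RNA. Without ZCCHC8 replicate 1 or 2 limma made 0 old-RNA calls in the ZCCHC8 line, with 653 and 622 genes at an unadjusted p under 0.05.

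In the METTL3 line the median gene moved by -0.125 in new RNA (-0.0718 and -0.160 by replicate), 0.152 in old RNA (0.0372 and 0.276) and -0.318 in the ratio (-0.126 and -0.486). Replicate 2 thus held most of the shift in old RNA and ratio. In the ZCCHC8 line the medians were -0.035 in new RNA (0.0264 and -0.0962), 0.086 in old RNA (0.0229 and 0.147) and -0.131 in the ratio (-0.0009 and -0.264), again with most of the old-RNA and ratio shift in replicate 2 and with opposite signs in new RNA. Centring each pair of libraries sets its median change to 0 by construction. With it, the METTL3 line gave 321 rises and 504 falls in new RNA, 1665 and 1529 in old RNA, and 1449 and 1673 for the ratio. The ZCCHC8 line then gave 215 rises and 247 falls in old RNA and 52 and 16 for the ratio, and the YTHDC1 line 81 and 201 in old RNA. The ratio is formed within a library, so its calls do not depend on the scaling to total reads. Changes of single genes below are to be read against these medians and their spread.

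The test of the ratio was used to place a change in a pool, since a gene that moves equally in both has an unchanged ratio. A shift in the estimated ratio of a whole library enters this placement too. In METTL3 replicate 2 the median new-to-total ratio was 0.563 in Ctrl and 0.457 in dTAG. After centring, the METTL3 line had 1449 rises and 1673 falls of the new-to-old ratio, and the placement was not repeated on centred values. In the METTL3 line 1472 genes rose mainly in old RNA (old RNA called up and the ratio down) and 195 fell mainly in old RNA. Only 10 genes rose mainly in new RNA, while 321 fell mainly in new RNA. In a further 139 genes new RNA fell while old RNA rose. Both pools were called in the same direction without a call on the ratio for 30 rising and 116 falling genes. In the YTHDC1 line 4 genes rose and 24 fell mainly in old RNA, 4 rose and 5 fell in both, and none was placed mainly in new RNA. In the ZCCHC8 line 24 genes rose mainly in old RNA, 7 mainly in new RNA and 15 in both, and 5, 1 and 3 fell. Of the genes called in any measure, 1530 of 3813 in the METTL3 line, 119 of 156 in the YTHDC1 line and 248 of 303 in the ZCCHC8 line had no such placement.

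**Figure D1:**
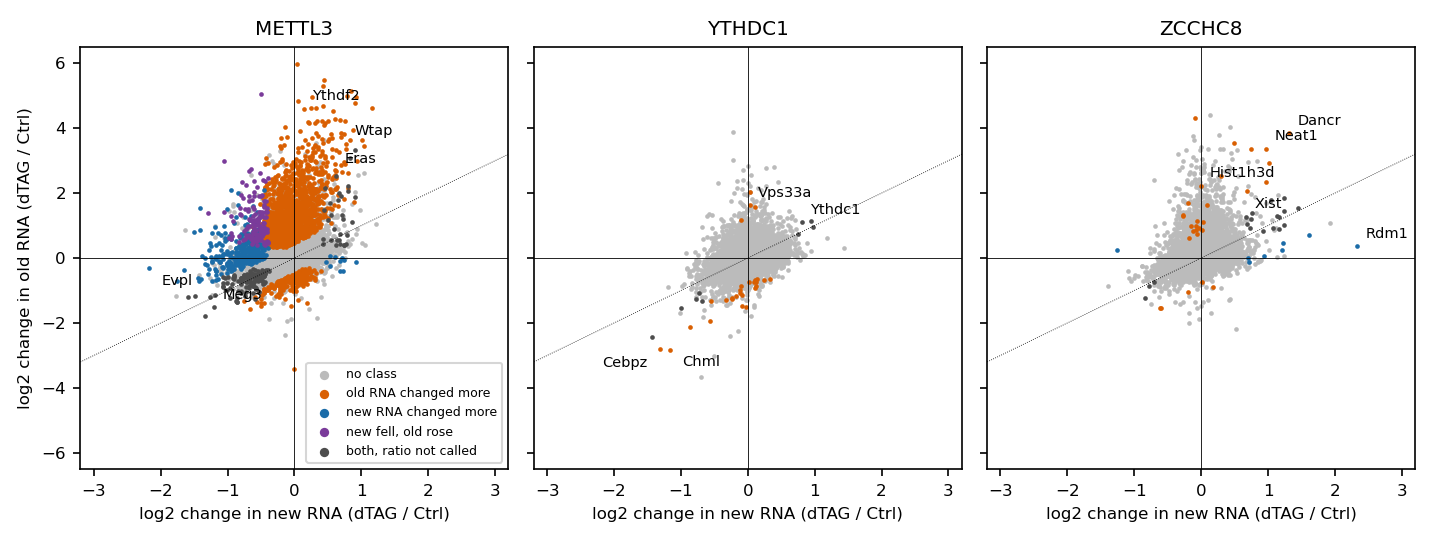
Log2 change in new RNA (x axis) against that in old RNA (y axis), dTAG over Ctrl, for 7455 genes in each line, with the dotted line marking equal change. In the METTL3 panel 1472 genes that rose mainly in old RNA (orange) lie above the line, while Rdm1 in the ZCCHC8 panel lies far to the right with little change in old RNA.

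The total read count alone does not show this split. By edgeR's quasi-likelihood test 1076 genes rose and 912 fell in total RNA after loss of METTL3 (14.4% and 12.2%), 15 and 36 after loss of YTHDC1 (0.201% and 0.483%), and 47 and 44 after loss of ZCCHC8 (0.630% and 0.590%). Of the 1076 METTL3 rises, 983 were also called in old RNA and 146 in new RNA, and their median change was 1.32 in old RNA and 0.153 in new RNA on the log2 scale. Of the 912 falls, 478 were called in old RNA and 515 in new RNA. Of the 47 rises in the ZCCHC8 line, 35 were called in new RNA and 29 in old RNA. The falls there were called in old RNA for 34 of 44 genes and in new RNA for 11.

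The m6A machinery itself was among the genes that moved in the METTL3 line. Of 7 measured members of the writer complex, 5 rose in old RNA (25.6% of all genes) and the ratio of 5 fell (31.7%). New RNA rose for 1 and fell for 1 (2.11% and 12.4% of all genes). The median change of the 7 in old RNA was 1.07, against 0.152 for all genes. Wtap (chromosome 17, 12966796 to 12994169, minus strand), the regulatory subunit that keeps the complex in nuclear speckles, held 17.0 and 8.50 CPM of old RNA in Ctrl and 152 and 125 in dTAG. Its new RNA was 104 and 100 in Ctrl and 206 and 148 in dTAG. Both pools were higher in each dTAG library, old RNA by 11.5-fold and new RNA by 1.71-fold (limma adjusted p = 2.81e-06 and 0.000765), and the ratio fell by 2.75 on the log2 scale (limma adjusted p = 3.31e-08). Without the pairing the new-RNA rise of Wtap was not called (limma adjusted p = 0.111). The adaptor genes Rbm15 and Rbm15b and the subunit gene Zc3h13 rose by 1.76, 1.53 and 1.07 in old RNA, with changes of -0.01, -0.31 and -0.47 in new RNA. The old-RNA rise of Zc3h13 was not called without the pairing (limma adjusted p = 0.125). None of the 7 was called in any pool in the YTHDC1 or the ZCCHC8 line. At most 1.50% of all genes were called there in any measure and direction.

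Among 12 reader and eraser genes, 5 rose and 1 fell in old RNA in the METTL3 line, where 25.6% and 9.15% of all genes did. As a group they did not stand above the rest, with a median old-RNA change of 0.050 against 0.152 and 6 estimates on each side of 0. Ythdf2 (chromosome 4, 132184912 to 132212303, minus strand), whose protein recruits the CCR4-NOT deadenylase to methylated mRNA, had 21.0 and 3.38 CPM of old RNA in Ctrl and 228 and 185 in dTAG. New RNA of Ythdf2 was 248 and 227 in Ctrl and 301 and 229 in dTAG. The arms were far apart in old RNA, and in new RNA one dTAG value lay between those of Ctrl. The old-RNA rise was 24.3-fold (log2 4.61 ± 0.49 SE, limma adjusted p = 9.36e-05), and the change in new RNA was 0.14 ± 0.13 (limma adjusted p = 0.493). Its ratio went from 0.922 and 0.986 to 0.569 and 0.553. Ythdf1 and Ythdf3, its paralogues, rose by 2.95 and 1.37 in old RNA, and Alkbh5, an m6A demethylase, rose by 1.60, none with a call in new RNA. The old-RNA rise of Ythdf2 exceeded that in the YTHDC1 line by 4.47 and that in the ZCCHC8 line by 3.69 (limma adjusted p = 0.0021 and 0.0061).

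**Figure D2:**
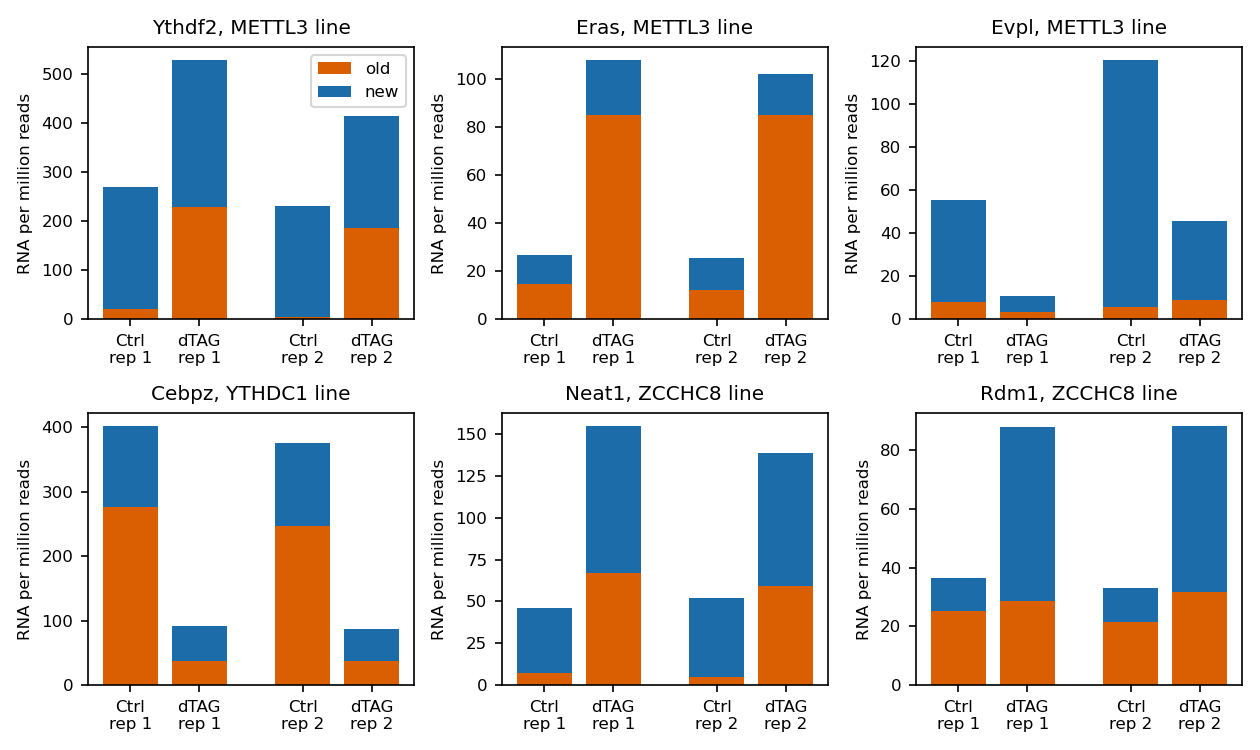
Old RNA (orange) and new RNA (blue, stacked above) in CPM in each of the 4 libraries of the named line, for 6 genes. Ythdf2 and Eras gained mainly old RNA after loss of METTL3, Evpl lost new RNA, Cebpz lost both pools and mainly old RNA after loss of YTHDC1, and after loss of ZCCHC8 Neat1 gained both pools while Rdm1 gained new RNA.

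Ythdc1 RNA rose in the METTL3 line as well, by 1.44 in old RNA and 0.46 in new RNA (limma adjusted p = 1.39e-05 and 0.0335). Of 20 measured genes of the NEXT, PAXT and exosome complexes, which together feed and form the nuclear RNA decay machinery, 6 rose and 3 fell in old RNA in the METTL3 line, shares near the 25.6% and 9.15% of all genes, and their median was 0.026 against 0.152. Among them Zcchc8 rose by 1.20 in old RNA with -0.08 in new RNA, and Rbm7, which encodes its RNA-binding partner, rose by 1.48 with 0.31. Exosc4, an exosome ring subunit, rose by 1.75 with 0.16.

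Eras (X chromosome, 7924276 to 7928607, minus strand), a constitutively active Ras of mES cells, rose by 2.01 in total RNA on the log2 scale. Its old RNA was 14.6 and 12.1 CPM in Ctrl and 85.2 and 85.3 in dTAG, and its new RNA was 12.1 and 13.5 and then 22.9 and 16.8. Both pools lay higher in the dTAG libraries, old RNA by 6.40-fold and new RNA by 1.54-fold (limma adjusted p = 2.81e-06 and 0.0295), and the log2 ratio changed by -2.06 ± 0.20 (limma adjusted p = 1.57e-12). The new-RNA rise of Eras was not called without the pairing (limma adjusted p = 0.303) or without METTL3 replicate 1 (limma adjusted p = 0.423). Rab9, a late endosome GTPase gene, is X-linked too and rose by 3.65 in old RNA, with 0.15 in new RNA. Eras overlaps a gene on the opposite strand, and whether strand was used in counting is not given in the sources used here.

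The old-RNA rises of largest fitted size were those of Mul1, a mitochondrial ubiquitin ligase gene, Brf2, a subunit of the RNA polymerase III factor TFIIIB, and Smg8, a regulator of nonsense-mediated decay. In each of them Ctrl replicate 2 was listed at a ratio of 1 and so at 0 old reads. Mul1 had 28.1 old reads in Ctrl replicate 1 against 307.8 and 503.7 in dTAG, Brf2 had 20.8 against 204.8 and 278.5, and Smg8 had 56.2 against 311.6 and 374.9. Every dTAG library was above both Ctrl libraries, and the fitted log2 changes of 5.99, 5.48 and 5.30 depend on the read added to 0. Mul1 had no call in new RNA (0.03 ± 0.18, limma adjusted p = 0.923).

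Falls in new RNA were led by genes of other kinds. Evpl (chromosome 11, 116220559 to 116238077, minus strand), which encodes the desmosomal protein envoplakin, had 47.5 and 115 CPM of new RNA in Ctrl and 7.22 and 37.0 in dTAG. The arms did not overlap, though the replicates of each arm differed by more than 2-fold. The fall was 4.53-fold (limma adjusted p = 8.4e-07), with -0.30 ± 0.41 in old RNA (limma adjusted p = 0.605). Without the pairing the new-RNA fall of Evpl was not called (limma adjusted p = 0.238), while its ratio was (limma adjusted p = 0.0255). Trp73, a p53 family transcription factor gene, fell by 1.77 in new RNA and Stat4, which encodes a cytokine signal transducer, fell by 1.76. Stat4 also fell in old RNA, by 0.71 (limma adjusted p = 0.0159).

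Of 15 measured p53 target genes, 10 fell and none rose in new RNA in the METTL3 line, against 12.4% falls among all genes, with a median of -0.476 against -0.125. Their old RNA rose for 3 and fell for none (25.6% and 9.15% of all genes), with a median of 0.746 against 0.152, but the medians of the replicates were -0.337 and 1.00. Pmaip1, a BH3-only apoptosis gene, changed by -0.75 in new RNA (limma adjusted p = 0.00202). Aen, an apoptosis-linked nuclease gene, fell in new RNA while its old RNA rose. Its new RNA was 178 and 236 CPM in Ctrl and 117 and 196 in dTAG, and its old RNA was 26.0 and 15.9 and then 56.3 and 84.2. Old RNA of Aen was higher in both dTAG libraries, while new RNA overlapped between arms and was lower in dTAG within each replicate. The fitted changes were -0.43 in new RNA and 1.76 in old RNA (limma adjusted p = 0.0295 and 0.000574), and its total RNA changed by -0.04 (edgeR adjusted p = 0.847). The new-RNA fall of Aen was not called without the pairing (limma adjusted p = 0.522) or after centring (limma adjusted p = 0.141). None of the 15 was called in new RNA in the other lines, where at most 0.644% of all genes were called in either direction.

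Of 4 measured BMP and Nodal pathway genes 3 fell in new RNA in the METTL3 line (12.4% of all genes), namely the Nodal antagonist genes Lefty1 (-0.73) and Lefty2 (-0.61) and the inhibitory Smad gene Smad7 (-0.59). Among 18 pluripotency factor genes new RNA rose for 1 and fell for 2, and old RNA rose for 3 and fell for 2. Over all genes 2.11% and 12.4% were called in new RNA and 25.6% and 9.15% in old RNA, and the medians of the 18 were 0.075 and 0.201 against -0.125 and 0.152. Sall4, Zfp42 and Esrrb rose by 1.00, 1.27 and 1.00 in old RNA with -0.33, 0.11 and -0.25 in new RNA, and Klf5 fell by 1.24 in new RNA. Of these old-RNA rises only that of Esrrb was called without the pairing (limma adjusted p = 0.0258). Meg3, an imprinted noncoding RNA, fell in both pools without a call on the ratio. Its new RNA went from 119 and 135 CPM to 45.7 and 67.1 and its old RNA from 161 and 189 to 47.3 and 77.8. All dTAG values were below all Ctrl values, with fitted falls of 2.29-fold and 2.87-fold (limma adjusted p = 1.27e-05 and 1.75e-05) and a ratio change of 0.33 (limma adjusted p = 0.184). Without the pairing only its old-RNA fall was called (limma adjusted p = 0.119 in new and 0.00432 in old RNA).

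Rises in new RNA were fewer. Fbxo5, which encodes an inhibitor of the anaphase-promoting complex, had 59.2 and 63.3 CPM of new RNA in Ctrl and 165 and 123 in dTAG, a 2.33-fold rise (limma adjusted p = 2.82e-05). Its old RNA was small and varied between replicates, with 92.1 and 4.0 old reads in Ctrl and 139.4 and 17.4 in dTAG. B3gnt2, a glycosyltransferase gene, rose by 2.07-fold in new RNA and Aunip, a centrosomal gene, by 2.23-fold (limma adjusted p = 0.000136 and 0.000231). Natd1 fell in both pools, by 1.34 in new RNA and 1.78 in old RNA.

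Ribosomal protein and oxidative phosphorylation genes gave few old-RNA calls in the METTL3 line, where 25.6% of all genes rose and 9.15% fell. Of 80 cytosolic ribosomal protein genes, 1 rose and 1 fell in old RNA there, with a median of -0.025. In new RNA 1 of the 80 rose (2.11% of all genes). None of the 80 was called in the other lines, where at most 1.50% of all genes were called in any measure and direction. Of 75 genes for oxidative phosphorylation subunits, 7 rose and 2 fell in old RNA in the METTL3 line. In the ZCCHC8 line 1 of the 75 fell in old RNA (0.724% of all genes). Of 165 zinc finger genes named Zfp, 31 rose and 1 fell in old RNA in the METTL3 line while 7 rose and 23 fell in new RNA, against 25.6%, 9.15%, 2.11% and 12.4% of all genes. Their median old-RNA change in that line was 0.586 (0.292 and 0.859 by replicate). Old RNA rose for 9 of them in the ZCCHC8 line (1.50% of all genes) and fell for 7 in the YTHDC1 line (0.979%). SR splicing factor and Clk kinase genes gave 2 old-RNA falls of 16 in the METTL3 line, a share near the 9.15% of all genes.

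Genes were then ordered by their ratio in the Ctrl libraries of the other lines, which did not enter that line's estimate. In the METTL3 line the median change in old RNA rose with that ratio, from -0.091 for 809 genes below 0.2 to 0.137 for 1470 genes between 0.4 and 0.6 and 0.858 for 1911 genes above 0.8. In that top band the replicates gave 0.292 and 1.39. New RNA stayed between -0.181 and -0.033 in all 5 bands. In the top band the median old-RNA change was 0.207 in the YTHDC1 line (0.406 and 0.053 by replicate) and 0.542 in the ZCCHC8 line (0.514 and 0.561), although 2.59% of those genes had a called rise after loss of ZCCHC8 and 0.209% after loss of YTHDC1. Old reads are fewest in that band, and between 63 and 908 genes of a library had under 20 old reads.

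**Figure D3:**
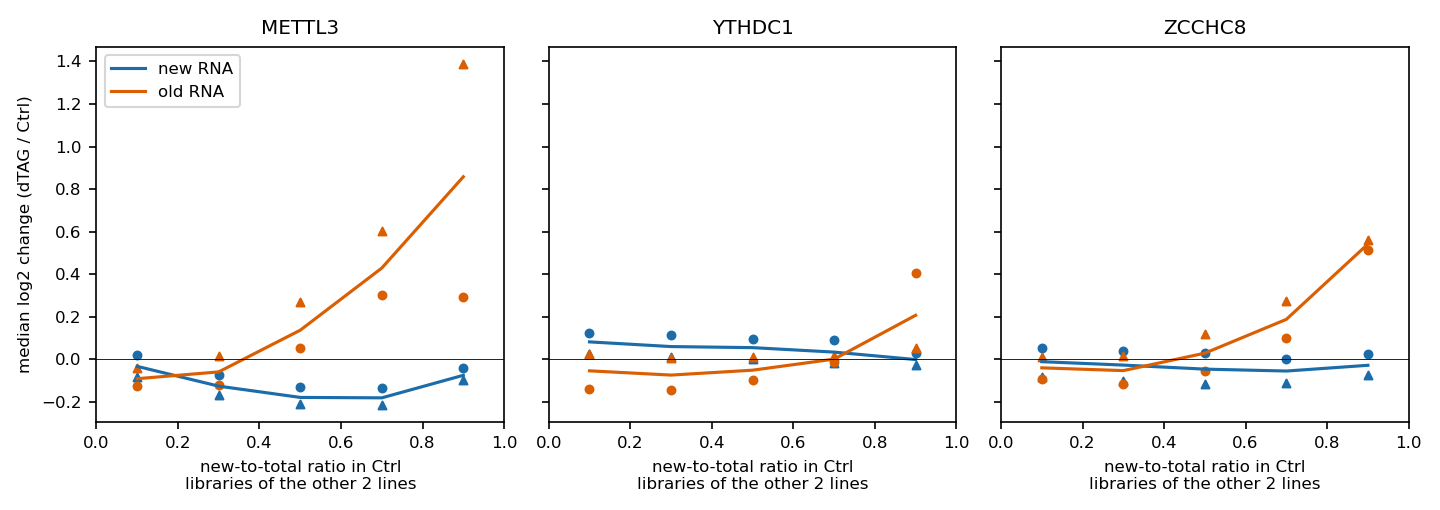
Median log2 change (dTAG over Ctrl) of new RNA (blue) and old RNA (orange) for genes in 5 bands of the new-to-total ratio, taken from Ctrl libraries of the other lines, with circles for replicate 1 and triangles for replicate 2. Old RNA in the METTL3 line climbs from -0.091 in the lowest band to 0.858 in the highest, with replicate values of 0.292 and 1.39, while new RNA in that line stays between -0.181 and -0.033.

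The METTL3 genes also differed in exon structure. Taking the longest GENCODE transcript of each gene, transcript length divided by exon number had a median of 474 nt for the genes whose old RNA rose, 236 nt for those whose old RNA fell and 347 nt for all genes. In 4 equal groups ordered by this measure, the median old-RNA change went from -0.089 in the group with the shortest exons to 0.118, 0.344 and 0.512, and the number of rises from 215 to 665. New RNA changed by -0.157 in the first and -0.059 in the last. The old-RNA medians went from 0.021 to 0.193 after loss of ZCCHC8 and from -0.064 to 0.033 after loss of YTHDC1. The density of GGAC, a core of the m6A consensus read on the transcript strand, was 3.86 per kb in genes with an old-RNA rise, 3.93 in those with a fall and 3.89 in all. It was 4.35 in genes whose new RNA fell and 3.80 in those whose new RNA rose, and 4.08 and 3.6 for falls and rises of the ratio. In 4 equal groups ordered by GGAC density the number of new-RNA falls went from 143 to 198, 266 and 317, and the median new-RNA change from -0.045 to -0.205 (0.127 to -0.314 in replicate 1 and -0.216 to -0.081 in replicate 2, so that the order of the end groups turned between replicates). The ratio bands and the exon groups were not separated from each other.

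**Figure D4:**
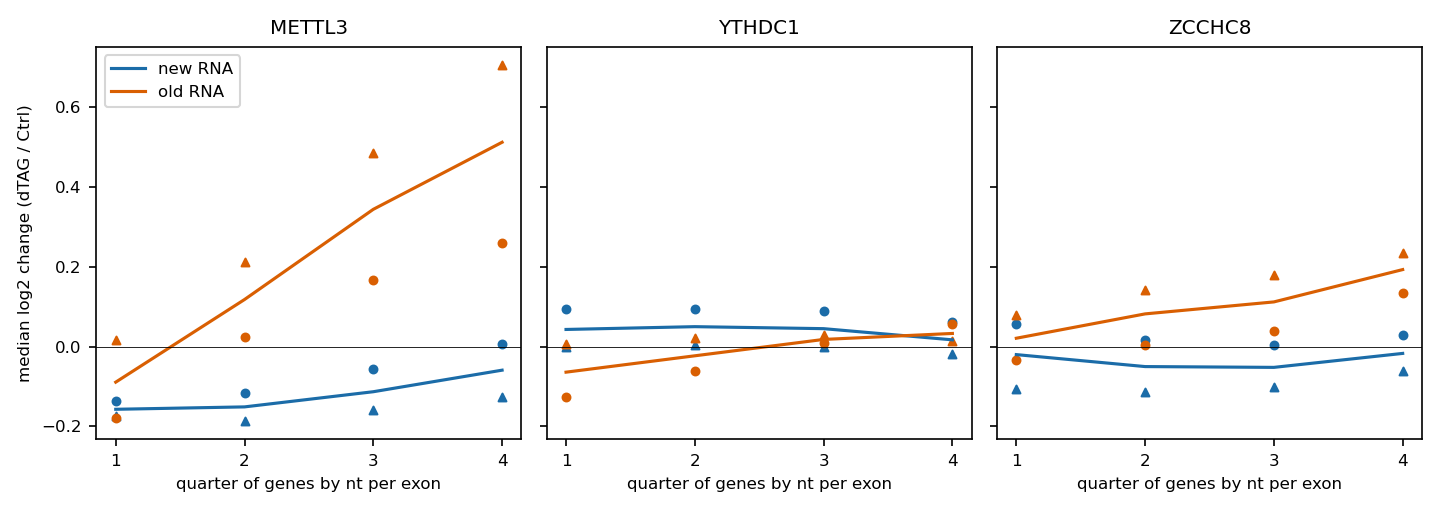
Median log2 change of new RNA (blue) and old RNA (orange) in 4 equal groups of genes ordered by transcript length per exon, from shortest to longest, with circles for replicate 1 and triangles for replicate 2. Old RNA in the METTL3 line climbs from -0.089 to 0.512 while new RNA goes from -0.157 to -0.059, and the other lines span smaller ranges.

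In the YTHDC1 line Cebpz (chromosome 17, 78919006 to 78937066, minus strand), which encodes a CCAAT-binding protein with a role in ribosome biogenesis, fell in both pools. Its old RNA was 277 and 247 CPM in Ctrl and 37.8 and 37.9 in dTAG, and its new RNA was 125 and 129 and then 53.6 and 49.4. The replicates nearly coincided within each arm, and the arms did not overlap in either pool. The fall was 6.92-fold in old RNA and 2.47-fold in new RNA (limma adjusted p = 3e-07 and 2.35e-05), and the ratio rose by 1.48 ± 0.19 on the log2 scale (limma adjusted p = 3.11e-07). Old RNA thus fell more than new RNA. The old-RNA and ratio calls of Cebpz were also made without the pairing, and the new-RNA call was not (limma adjusted p = 0.0635). Chml, a Rab escort protein gene, followed the same course, with new RNA of 23.7 and 26.5 falling to 10.7 and 11.6 and old RNA of 11.2 and 9.79 falling to 1.56 and 1.39. The old-RNA fall of Cebpz differed from the METTL3 line by -2.80 and from the ZCCHC8 line by -2.61 (limma adjusted p = 8.32e-06 and 2.88e-05).

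Vps33a, a subunit of the endosomal HOPS tethering complex, showed the opposite course, with a rise in old RNA alone. Its old RNA was 31.4 and 30.1 CPM in Ctrl and 91.6 and 98.0 in dTAG, and its new RNA was 48.2 and 55.2 and then 49.6 and 56.1. The arms were well apart in old RNA and interleaved in new RNA. The log2 changes were 1.62 ± 0.14 and 0.03 ± 0.15 (limma adjusted p = 0.000559 and 0.956), and the ratio changed by -1.59 (limma adjusted p = 3.11e-07). Old RNA of Vps33a rose by 1.28 more than in the ZCCHC8 line (limma adjusted p = 0.012), while its difference from the METTL3 line was 0.26 (limma adjusted p = 0.455). Camk2g, a calcium-dependent kinase gene, and Exo1, a DNA repair exonuclease gene, rose by 2.03 and 1.57 in old RNA with 0.04 and 0.11 in new RNA. Without the pairing Vps33a kept its old-RNA call (limma adjusted p = 0.00366), and Camk2g and Exo1 were not called (limma adjusted p = 0.316 and 0.439).

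Rises in both pools were found for Acot1, an acyl-CoA thioesterase gene, and for Utp14a, an X-linked gene of ribosome assembly. Acot1 had new RNA of 16.3 and 15.3 CPM in Ctrl and 31.5 and 30.3 in dTAG, which did not overlap, and the fitted rise was 1.96-fold in each pool. The log2 ratio of Acot1 changed by 0.00 ± 0.19. Utp14a rose by 0.75 in both pools (limma adjusted p = 0.0147 in new and 0.0107 in old RNA). Neither gene was called in either pool without the pairing, where the old-RNA limma adjusted p was 0.462 for Acot1 and 0.265 for Utp14a. B230354K17Rik fell in both, by 1.44 in new RNA and 2.44 in old RNA, and it too was not called without the pairing (limma adjusted p = 0.153 and 0.316).

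The 40 measured replication-dependent histone genes, whose non-polyadenylated mRNAs are made in S phase, shifted in new RNA in the YTHDC1 line. All 40 estimates were below 0 (42.5% of all genes were), with a median of -0.481 (-0.747 and -0.225 by replicate) against 0.039 for all genes, and 7 fell past the threshold (0.416% of all genes). Hist1h4f had 185 and 145 CPM of new RNA in Ctrl and 96.7 and 95.2 in dTAG, and its old RNA was 47.1 and 28.3 and then 39.7 and 23.9. Its new RNA did not overlap between the arms, and its old RNA did. The new-RNA fall was 1.71-fold (limma adjusted p = 0.00902), with -0.24 in old RNA (limma adjusted p = 0.727), and it was not called without the pairing (limma adjusted p = 0.999). The median old-RNA change of the 40 genes was -0.017, with 20 estimates on each side of 0.

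After loss of METTL3, 3 of the same genes rose and none fell in old RNA (25.6% and 9.15% of all genes). Of their estimates 37 were above 0 (61.2% of all genes were), and the median was 0.307 but -0.115 and 0.710 by replicate. In the ZCCHC8 line the same genes shifted in old RNA. Of the 40, 11 rose in old RNA (1.50% of all genes) and none fell, 38 estimates were above 0 (61.5% of all genes were), and the median was 0.701 (0.555 and 0.666 by replicate) against 0.086. The ratio fell for 10 (1.05% of all genes) and was estimated below 0 for all 40 (66.5% of all genes were). In new RNA 1 rose and 1 fell (0.644% and 0.402% of all genes). Hist1h3d (chromosome 13, 23575763 to 23577011, plus strand) had old RNA of 22.7 and 23.8 CPM in Ctrl and 97.3 and 122 in dTAG, and new RNA of 97.4 and 101 and then 89.9 and 110. The arms were far apart in old RNA and overlapped in new RNA. Old RNA rose by 4.68-fold (limma adjusted p = 0.00014) and new RNA changed by 0.00 ± 0.15. Without the pairing the ratio of Hist1h3d was called (limma adjusted p = 0.000436) and its old RNA was not (limma adjusted p = 0.146). The rise of old Hist1h3d RNA exceeded that in the YTHDC1 line by 2.28 and that in the METTL3 line by 1.99 (limma adjusted p = 0.00149 and 0.00032). Hist1h4i rose in both pools, by 2.03-fold in new and 7.59-fold in old RNA. Histone genes are near-identical copies, so that reads counted by unique alignment may be split among them.

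**Figure D5:**
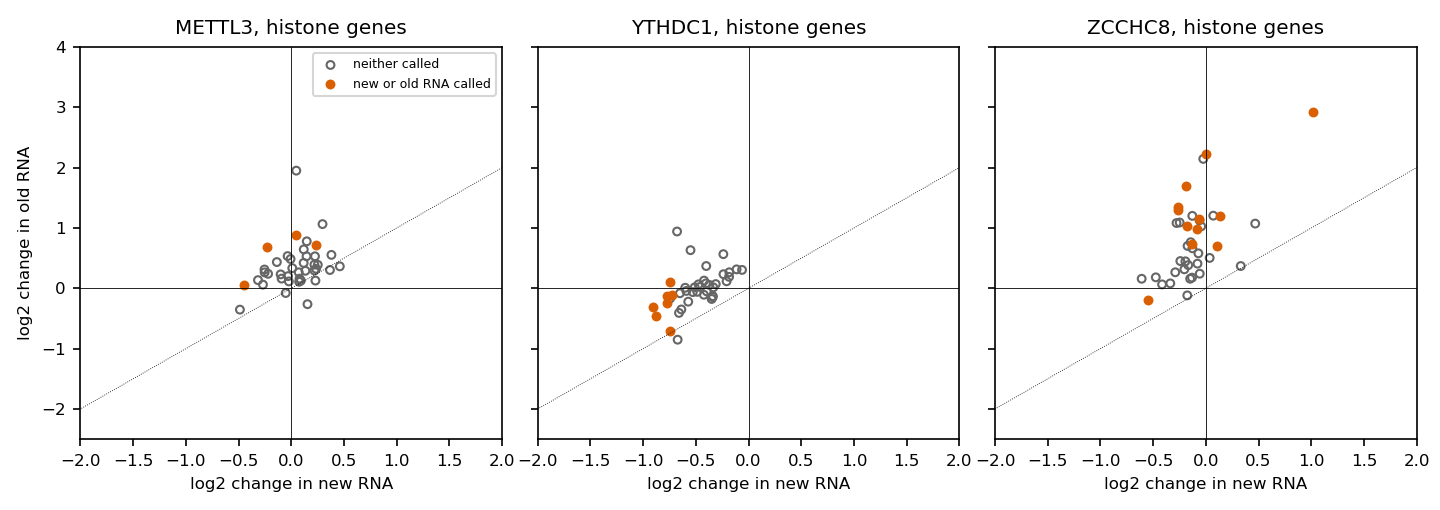
Log2 change in new RNA (x axis) against that in old RNA (y axis), dTAG over Ctrl, for 40 replication-dependent histone genes in each line, filled where new or old RNA was called and with the dotted line marking equal change. All 40 points lie left of 0 in the YTHDC1 panel, and 38 of 40 lie above 0 in the ZCCHC8 panel.

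Some noncoding RNAs rose after loss of ZCCHC8. Of 34 lincRNA genes, 7 rose and none fell in old RNA (1.50% and 0.724% of all genes) and 5 rose and none fell in new RNA (0.644% and 0.402%), so that most did not pass the test. Their median old-RNA change was 0.517 against 0.086 for all genes. Neat1 (chromosome 19, 5824708 to 5845478, minus strand), the scaffold of paraspeckles, had old RNA of 7.46 and 5.00 CPM in Ctrl and 67.1 and 59.2 in dTAG, and new RNA of 38.5 and 47.0 and then 87.8 and 79.8. The dTAG values were above the Ctrl values in both pools. The rises were 10.3-fold in old RNA and 1.97-fold in new RNA (limma adjusted p = 0.000476 and 0.00246), and the ratio changed by -2.39 (limma adjusted p = 1.43e-06). None of these Neat1 calls was made without the pairing, where the limma adjusted p was 0.915 in new RNA, 0.146 in old RNA and 0.084 for the ratio. That fit left the pairing out of all lines, not of the ZCCHC8 line alone. Dancr, a noncoding RNA, rose by 3.85 in old RNA and 1.31 in new RNA. Snhg20, a snoRNA host gene, rose by 1.84 and 1.23, without a call on the ratio (limma adjusted p = 0.15). Platr4, a pluripotency-associated noncoding RNA, rose by 3.37 and 0.75. No call on Dancr, Snhg20 or Platr4 was made without the pairing, where limma adjusted p in old RNA was 0.26, 0.524 and 0.322.

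Rdm1 (chromosome 11, 101627195 to 101636100, plus strand), a gene related to the recombination protein RAD52, rose in new RNA alone. Its new RNA was 11.3 and 11.6 CPM in Ctrl and 59.2 and 56.6 in dTAG, and its old RNA was 25.2 and 21.4 and then 28.6 and 31.7. New RNA was higher by a wide margin in both dTAG libraries, and old RNA by a small one. New RNA rose by 5.04-fold (limma adjusted p = 8.65e-08), old RNA changed by 0.37 ± 0.19 (limma adjusted p = 0.319), and the ratio rose by 1.96 ± 0.19 (limma adjusted p = 6.55e-11). Its new-to-total ratio went from 0.308 and 0.351 to 0.675 and 0.642. Gm5039 and Grcc10 also rose in new RNA, by 3.80-fold and 3.05-fold, with 1.08 and 0.71 in old RNA (limma adjusted p = 0.0547 and 0.0638). Rdm1 and Grcc10 each overlap another gene on the same strand. The summed level of 13 two-cell-like markers, genes of a rare state of mES cell cultures, moved with the arm in the ZCCHC8 line, from 57.1 and 69.8 CPM in Ctrl to 205 and 196 in dTAG, all 13 being above 0 in each of the 4 libraries. The part of these cells in the results was not tested.

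Falls in the ZCCHC8 line numbered 54 in old RNA and 30 in new RNA. Galnt2, a glycosyltransferase gene, had old RNA of 35.3 and 41.7 CPM in Ctrl and 10.9 and 15.9 in dTAG, and new RNA of 14.5 and 20.8 and then 10.8 and 12.0. The arms did not overlap in either pool. Old RNA fell by 2.91-fold (limma adjusted p = 0.000634, and 0.134 without the pairing), and Gm20388, a read-through annotation over the same gene, had nearly the same values. Adcy1, an adenylyl cyclase gene, fell by 1.41 and Usp11, a ubiquitin protease gene on the X chromosome, by 1.20 in old RNA, neither of which was called without the pairing (limma adjusted p = 0.304 and 0.0689). Me1, which encodes malic enzyme, changed in new RNA alone, with 5.65 and 6.12 CPM in Ctrl and 3.03 and 1.98 in dTAG and a total change of 0.00 on the log2 scale. The new-RNA values of Me1 did not overlap. For Zfp1 and Hs6st1 both Ctrl libraries were listed at 0 old reads, against 31.3 and 14.9 in dTAG for Zfp1 and 31.3 and 13.3 for Hs6st1.

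Xist, the noncoding RNA that silences the X chromosome and was induced in every library, was called in both pools in the ZCCHC8 line. Its new RNA was 675 and 531 CPM in Ctrl and 921 and 997 in dTAG, and its old RNA was 315 and 183 and then 579 and 580. The dTAG values lay above the Ctrl values in both pools, with rises of 1.60-fold and 2.41-fold (limma adjusted p = 0.00973 and 0.0048). Neither call was made without the pairing or without either of the ZCCHC8 replicates, with a limma adjusted p of 0.194 for old Xist RNA without the pairing. In the METTL3 line old RNA was 163 and 175 in Ctrl and 421 and 369 in dTAG. This 2.34-fold rise was called with and without the pairing (limma adjusted p = 0.000318 and 0.00592). New RNA there was 306 and 468 and then 436 and 548 and overlapped between the arms, with a change of 0.37 (limma adjusted p = 0.0622). The new-to-old ratio of Xist was called in the METTL3 line (limma adjusted p = 0.00239, and 0.0182 without the pairing). It was not called in the ZCCHC8 line (limma adjusted p = 0.177). In the YTHDC1 line the changes were -0.19 in new RNA and 0.07 in old RNA (limma adjusted p = 0.622 and 0.902). The old-RNA change in that line was 1.15 below that of the METTL3 line and 1.20 below that of the ZCCHC8 line (limma adjusted p = 0.00795 and 0.0425). Xist overlaps annotated genes on both strands.

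The 258 X-linked genes other than Xist were compared with 7189 autosomal genes as a description, since 2 pairs of libraries allow no exact test under 0.05. In the ZCCHC8 line the X-linked median differed by -0.205 in new RNA in each of the replicates and by -0.314 and -0.290 in old RNA. In the METTL3 line the new-RNA difference was 0.082 and -0.113, and the old-RNA difference was -0.062 and -0.330. In the YTHDC1 line the X-linked median lay above the autosomal one by 0.202 and 0.093 in new RNA and by 0.011 and 0.021 in old RNA. X-linked genes called in new RNA numbered 4 rises and 30 falls, 1 and 0, and 0 and 8 in the METTL3, YTHDC1 and ZCCHC8 lines, against 2.11% and 12.4%, 0.0939% and 0.416%, and 0.644% and 0.402% of all genes. In old RNA they numbered 40 and 40, 1 and 2, and 1 and 11, against 25.6% and 9.15%, 0.174% and 0.979%, and 1.50% and 0.724%.

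The libraries after 90 min and 180 min of uridine chase were not used in any test, and 5 of the genes above are given here by their values. Cebpz was at 387 and 327 CPM in Ctrl and 88.1 and 91.4 in dTAG after 90 min. Eras was at 27.4 and 14.6 CPM in Ctrl and 96.7 and 91.8 in dTAG, and its ratio was 0.522 and 0.621 against 0.209 and 0.229. Rdm1 kept a higher ratio in dTAG, 0.640 and 0.671 against 0.381 and 0.353 after 90 min and 0.569 and 0.568 against 0.396 and 0.376 after 180 min. Vps33a kept a lower one, 0.356 and 0.411 against 0.630 and 0.659 after 90 min. For Ythdf2 the order of the ratios within each replicate had turned by 180 min, with 0.464 and 0.517 in Ctrl and 0.510 and 0.594 in dTAG, though the arms overlapped.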

How the data were processed

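The 12 libraries taken at the end of the 4sU pulse were used, in 6 groups of 2 (METTL3, YTHDC1 and ZCCHC8 lines, Ctrl and dTAG arms), grouped by their labels. The libraries were TruSeq stranded total RNA. The authors removed rRNA reads, aligned the rest end to end to mm10 with STAR 2.5.2b, kept unique alignments and ran GRAND-SLAM, whose output is in 1 table per line and replicate. The version, the gene release and the use of strand in counting are not given in the sources used here. As deposited, each table holds read counts per gene, not normalized. The deposited new-to-total ratio is a fraction between 0 and 1, of which the maximum a posteriori value (MAP) was used. The authors' T-to-C conversions and T coverage are deposited as signal values and served for the T-to-C share. Of the per-library columns 132 were read and 300 were not. Those read include the counts and ratios at the later chase times, from which the chase values of 5 genes are given.

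New and old reads were the count times the ratio and the remainder. Genes needed at least 100 reads in all 12 libraries. After adding 1 read, values were scaled with TMM factors (edgeR 4.0.16), taken to log2 and fitted with limma 3.58.1 (trend, robust) in R 4.3.3, with a term for each line and replicate and an arm effect for each line, at a Benjamini-Hochberg adjusted p under 0.05. With 2 pairs a line no exact permutation test of a single gene can pass that threshold, so the p-values rest on the spread shared among genes and lines. Differences between lines were contrasts of this fit. Total counts were tested by edgeR's quasi-likelihood test, with DESeq2 1.42.0 as an alternative. The limma arm effects of each line and the edgeR fit were tested on simulated data with 1 spread per gene for all lines. The contrasts between lines and DESeq2 were not. Same-numbered libraries of a line share a table and, per the study's methods, a batch of cells, and the correlations of their deviations in new RNA, old RNA and ratio were 0.741, 0.597 and 0.65 for METTL3, 0.755, 0.648 and 0.487 for YTHDC1 and 0.237, 0.0543 and -0.0182 for ZCCHC8. Replicates differed by more than sampling noise.

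The genes and lists were chosen with earlier results of these data known. Named genes were Mettl3, Ythdc1, Zcchc8 and Xist, the 3 largest rises and falls called per line and measure with both replicates in 1 direction, and up to 4 members of each list per line. Positions, biotypes and transcripts are from GENCODE M21 (mm10). In that annotation 3289 of the genes analysed overlap a gene on the other strand and 1902 one on the same strand. Figures and summaries used Python 3.11.15, pandas 2.3.3 and matplotlib 3.10.9.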

Additional observations from a re-analysis of the deposited data

Results flagged for a closer look

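The genes below changed in 1 line by an amount that differed from the change in each of the other lines (limma contrasts of the log2 changes, both past the threshold). The value given is the smaller of the 2 differences.

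In the METTL3 line new RNA differed by 1.3 for Fbxo5, 0.95 for Aunip and 0.93 for B3gnt2 in the upward direction, and by -1.51 for Evpl, -1.8 for Trp73 and -1.85 for Stat4. Old RNA differed by 5.62 for Mul1 and 5.59 for Brf2, each with a Ctrl library listed at 0 old reads, and by -3.04 for Ppp1r10 and -1.65 for Natd1. The new-to-old ratio differed by -5.21 for Brf2, 3.23 for Tfap4 and 1.49 for Dimt1. For Ppp1r10 old reads were 116.8 and 26.8 in Ctrl and 77.2 and 3.0 in dTAG, so that the difference rests on few old reads in replicate 2.

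In the YTHDC1 line Cebpz differed by -0.85 in new RNA, -2.61 in old RNA and 1.5 in the ratio. Chml differed by -2.93 in old RNA and 1.71 in the ratio. Acot1 differed by 1.19 in new RNA and Gpatch1 by 1.52 in the ratio.

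In the ZCCHC8 line Rdm1 differed by 2.22 in new RNA and 2.15 in the ratio, and Gm5039 by 2.35 in new RNA. In old RNA Dancr differed by 3.0, Galnt2 by -1.2 and Gm20388, which overlaps Galnt2, by -1.22.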

How the results depend on the processing

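Called genes, rises and falls together, numbered 1083, 38 and 78 in new RNA, 2589, 86 and 166 in old RNA, 2650, 72 and 120 for the ratio and 1988, 51 and 91 in total RNA, for the METTL3, YTHDC1 and ZCCHC8 lines in that order here and below. Where an alternative is given for fewer measures or lines, the counts not given were within 1.5 times these. Without the replicate block, that is without the pairing of libraries by table, there were 5, 0 and 1 in new RNA, 1238, 8 and 1 in old RNA, 7 each for the ratio in the YTHDC1 and ZCCHC8 lines, and 286, 3 and 0 in total RNA. Beside the counts of 0, limma gave 205 genes at an unadjusted p under 0.05 in new RNA of the YTHDC1 line and edgeR gave 379 in total RNA of the ZCCHC8 line. Of the 234 calls on named genes, 87 were also made without the block, and none reversed under any alternative. The lack of reversals was largely fixed in advance. Leaving out the block keeps the limma estimates, and genes named for the size of their change had to have both replicates in 1 direction.

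With every gene of at least 1 read in all libraries, new RNA gave 1998 calls (METTL3) and 412 (ZCCHC8), the ratio 417, 0 and 0 (992 and 1307 genes at an unadjusted limma p under 0.05 in the latter lines) and total RNA 3762, 254 and 723. At 300 reads, where fewer genes were tested, new RNA gave 479, 17 and 17, old RNA 1505 (METTL3) and 67 (ZCCHC8) and the ratio 1496, 152 and 56, and the X-linked difference was 0.037 in old RNA of the YTHDC1 line and -0.184 in new RNA, -0.2684 in old RNA and 0.0558 for the ratio in the ZCCHC8 line. Each line fitted alone gave 277, 418 and 541 in new RNA, 1444, 975 and 1283 in old RNA and 557 for the ratio in the YTHDC1 line. Without variance trend or robust estimation, the YTHDC1 line gave 10, 2 and 0 for new RNA, old RNA and ratio and the ZCCHC8 line 0 for old RNA and for the ratio (676 genes for the YTHDC1 ratio, and 1311 and 1006 for ZCCHC8 old RNA and ratio, at an unadjusted limma p under 0.05). Centring each pair gave 282 and 462 in old RNA and 41 and 68 for the ratio in the YTHDC1 and ZCCHC8 lines. A minimum of 20 new and 20 old reads, chosen after seeing the data, gave 688 (METTL3) and 25 (YTHDC1) in new RNA, 165 (YTHDC1) and 273 (ZCCHC8) in old RNA and 136 for the YTHDC1 ratio. The YTHDC1 ratio gave 172 calls after adding 5 reads, 12 on the new-to-total ratio itself and 4 on the T-to-C rate, which gave 16 in the ZCCHC8 line. DESeq2 gave 86 calls in total RNA of the YTHDC1 line. The causes of these shifts were not tested.

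Leaving out 1 replicate in turn gave 685 to 1874, 2 to 442 and 2 to 468 calls in new RNA, 2060 to 3004, 8 to 885 and 0 to 1450 in old RNA, 1260 to 2840, 10 to 246 and 75 to 465 for the ratio, and 1313 to 3407, 4 to 1224 and 2 to 1080 in total RNA. A line left with 1 pair was assumed to vary like the others. The counts of the YTHDC1 and ZCCHC8 lines rose without either METTL3 replicate. New-RNA calls in the METTL3 line rose to 1874 without its replicate 2 and fell to 685 and 694 without ZCCHC8 replicates 1 and 2, and its ratio calls fell to 1260 without its replicate 2.

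With 2 pairs per line, the lack of a call does not show that a gene kept its level. Old RNA is least precise where the ratio is near 1, since it is then the difference of 2 close numbers, and the error of the GRAND-SLAM estimate did not enter the fits. Depth limits the ZCCHC8 line most. All levels are relative to total reads, so a change in RNA per cell shared by all genes is not measured.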

Other observations

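Some further short lists are given beside the shares called among all genes. Of 12 immediate early genes, 2 rose and 3 fell in new RNA in the METTL3 line (2.11% and 12.4% of all genes). Old RNA rose for 1 of them (25.6% of all genes). Their medians were -0.117 in new and 0.287 in old RNA against -0.125 and 0.152 for all genes. None was called in the ZCCHC8 line, where at most 1.50% of all genes were called in any measure and direction. Their medians there were 0.21 in new and 0.701 in old RNA against -0.035 and 0.086 for all genes. Of 10 integrated stress response genes none was called in new or old RNA in the METTL3 line. The ratio of 1 rose and of 1 fell (3.88% and 31.7% of all genes). Ddit4, which is among the 10, rose in new RNA in the ZCCHC8 line (0.644% of all genes). Of 4 measured snoRNA host genes, 1 rose in old RNA in the METTL3 line (25.6% of all genes) and 1 in both pools in the ZCCHC8 line, which was Snhg20 in each case. Of 4 nuclear long noncoding RNAs, Xist and Neat1 among them, 2 rose in each pool in the ZCCHC8 line, and none was called in the YTHDC1 line. Over all genes 0.644% rose in new RNA and 1.50% in old RNA in the ZCCHC8 line. In the YTHDC1 line at most 0.979% of all genes were called in any measure and direction. Of 9 mES cell marker genes 1 fell in new RNA and 2 rose in old RNA in the METTL3 line, near the 12.4% and 25.6% of all genes. None of the 9 was called in the other lines, where at most 1.50% of all genes were called in any measure and direction.

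The 12 fibroblast markers summed to 54.8 and 95.3 CPM in Ctrl libraries of the METTL3 line and to 58.6 and 113 CPM in its dTAG libraries, and 2 of them had enough reads to be fitted. Of these 2, old RNA rose for 1 in the METTL3 line (25.6% of all genes). The 7 primitive endoderm markers summed to 11.6 to 39.8 CPM over the 12 libraries, and none was deep enough to be fitted. Their sum was higher in dTAG than in Ctrl within each pair of libraries, from 17.9 and 26.3 to 30.2 and 39.8 CPM in the METTL3 line. The part of such cells in the results was not tested. The two-cell-like markers, whose rise in the ZCCHC8 line is given above, summed to 38.0 and 59.4 CPM in Ctrl and 41.9 and 45.0 in dTAG in the METTL3 line and to 14.3 and 31.2 and then 11.1 and 24.9 CPM in the YTHDC1 line.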
